A study of Mus musculus with 24 samples.

Results

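Primary mammary tumors of MMTV-PyMT mice at 6 weeks of age, staged by the study as hyperplasia, were compared with tumors at 12 weeks, staged as late carcinoma. The members are the 3 tumor libraries titled for week 6 and the 3 titled for week 12, chosen by title alone from the 24 small RNA libraries of the study. The other 18 libraries are tumors of weeks 8 and 10, and normal glands from FVB females of each of the 4 ages, 3 per week. The tumor mice were F1 females of the FVB strain, heterozygous for a transgene in which the MMTV promoter drives the polyoma middle T antigen in mammary epithelium. By the study's methods, late carcinoma animals had lung metastases. The study also states that hyperplasia tissue included cells of the normal gland, whereas its carcinoma samples in general consisted mostly of tumor cells. Control mice lacked the transgene. Each library came from 1 mouse by the study's account, and all tissue was snap-frozen before total RNA was extracted. The table lists 510 miRNAs, of which 324 had a count in these 6 tumor libraries and 237 passed the filter on low counts and were tested.

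A miRNA pairs with messenger RNAs mainly through its seed, bases 2 to 8 from the 5′ end, and lowers the output of its targets. The miR-200 family maintains epithelial identity, miR-9, miR-10b, miR-31 and miR-138 have been linked to migration or metastasis of breast cancer cells, and miR-1 and miR-133 belong to striated muscle. Some miRNAs are encoded together in large groups. The Dlk1-Dio3 domain holds an imprinted array that is read from the maternal chromosome, and an intron of Sfmbt2 holds repeated copies of the miR-297, miR-466, miR-467 and miR-669 families.

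A mature sequence was taken from the RefSeq table of GRCm38.p6 for 33 of the 43 miRNAs that changed. The sequences below are those on which the results turn most, with the seed in capitals. The counts do not tell the arms of a hairpin apart, so the arm shown for each miRNA is the arm usually described as its guide.
miR-31-5p: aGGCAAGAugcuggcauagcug
miR-9-5p: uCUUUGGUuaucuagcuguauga
miR-138-5p: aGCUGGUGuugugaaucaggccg
miR-154-5p: uAGGUUAUccguguugccuucg
miR-127-3p: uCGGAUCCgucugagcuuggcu
The next 4 miRNAs form pairs that share a seed but differed in whether they passed the test. They were chosen after their values were seen.
miR-10b-5p: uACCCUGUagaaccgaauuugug
miR-10a-5p: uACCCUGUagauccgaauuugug
miR-125a-5p: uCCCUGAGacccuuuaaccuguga
miR-125b-5p: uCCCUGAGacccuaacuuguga
The last pair shares a seed and rose together. RefSeq names them miR-195a and miR-497a.
miR-195a-5p: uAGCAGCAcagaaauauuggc
miR-497a-5p: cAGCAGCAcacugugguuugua
Among the 33 changed miRNAs with a sequence, AGCAGCA was the only seed held by more than 1 of them. The 10 without, miR-466b, miR-466e, miR-467a and miR-467d among them, were not examined.

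The 6 libraries held 1208516 to 2213972 counted reads, and 3 counts corresponded to 1.36 to 2.48 CPM, the count scaled to the library total, before normalization. Levels below are CPM after TMM scaling of the 6 libraries. The 5 most counted miRNAs over the 6 libraries were miR-148a, miR-143, miR-92a, miR-10b and miR-10a, and together they took 58.2% ± 1.51 of the counts in hyperplasia and 54.8% ± 3.30 in late carcinoma (SD, n = 3 each, exact permutation p = 0.2, where 0.1 is the smallest p-value that 3 against 3 libraries allow). miR-148a alone took 29.5% to 38.5%. By mean share miR-10b ranked 3 in hyperplasia and 6 in late carcinoma, where miR-182 ranked 4. The 11 listed epithelial miRNAs were all detected at both stages, with a summed level of 55986 to 64706 CPM in hyperplasia and 68891 to 82093 CPM in late carcinoma. The smooth muscle and myoepithelial miRNAs miR-143 and miR-145 summed to 88589 to 99722 and 66867 to 127556 CPM. Hyperplasia libraries 1 and 2 and late carcinoma library 1 were sequenced on lane 1, and the other 3 on lane 2.

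Late carcinoma differed from hyperplasia in 43 of the 237 tested miRNAs (18.1%), of which 20 (8.44%) were higher and 23 (9.7%) lower at an adjusted p-value under 0.05 (edgeR quasi-likelihood test, Benjamini-Hochberg adjustment). An unadjusted p-value under 0.05 was reached by 90. In all 43 the libraries of the stages did not overlap, as in 97 of all tested miRNAs (40.9%). Without overlap the direction within each lane is fixed, so that all 43 shared it on both lanes does not test the lane. Of all tested miRNAs, 76.4% had the same direction on both lanes. The higher miRNAs were abundant, with a median level of 2361 CPM, and most of their changes were small, with a median log2 fold change of 0.84. The lower miRNAs had a median level of 95.9 CPM and a median log2 fold change of -1.16. A change of at least 1 log2 unit was seen in 6 of the 20 and 16 of the 23. Over all tested miRNAs it was seen in 33 of 237, and the median level was 159.8 CPM. Rare miRNAs had larger changes in general. The median absolute log2 fold change of tested miRNAs was 0.741 below 10 CPM and 0.54 from 10 to 100 CPM. It was 0.286 from 100 to 1000 CPM and 0.335 above that. The higher miRNAs took 8.45% to 9.47% of all counts in hyperplasia and 12.5% to 14.6% in late carcinoma, and the lower miRNAs fell from between 10.2% and 11.2% to between 3.80% and 5.45%. miR-10b made up much of this share at both stages, and the other 22 took 3.19% to 5.10% in hyperplasia and 1.62% to 2.15% in late carcinoma. The number of miRNAs past the threshold was 20 with the lane as a covariate and 18 in a fit of all 24 libraries. It was 8, 24 and 15 without hyperplasia libraries 1, 2 and 3, and 24 without late carcinoma library 3. The calls of miR-31, miR-127, miR-154, miR-1, miR-133a and miR-133b held without any single library, and each of the other 37 was lost without at least 1 of the 6.

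**Figure D1:**
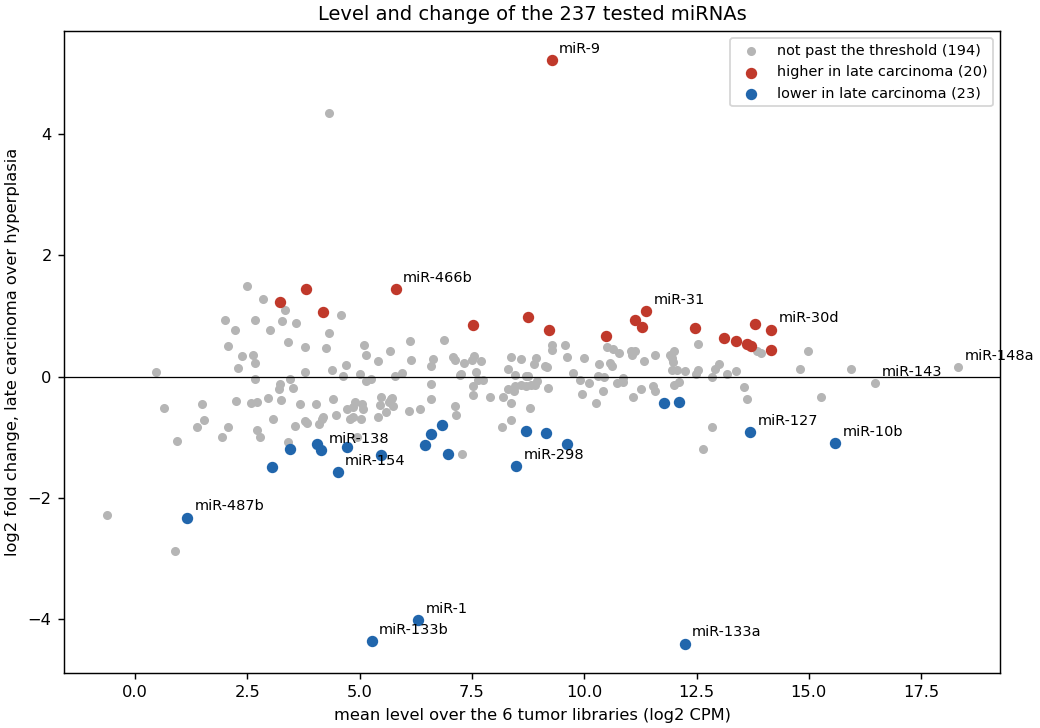
Each point is 1 of the 237 tested miRNAs, with its mean level over the 6 tumor libraries in log2 CPM on the x axis and the log2 fold change of late carcinoma over hyperplasia on the y axis. The 20 higher miRNAs (red) lie mostly at high levels with changes under 1.5, apart from miR-9 at 5.22, and the 23 lower miRNAs (blue) lie mostly at lower levels, with miR-133a, miR-133b and miR-1 below -4.

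Of the 10 tested miRNAs listed as linked to invasion and metastasis, 2 rose (miR-9 and miR-31), 2 fell (miR-10b and miR-138) and 6 did not pass the test, with a median log2 fold change of -0.13 against -0.04 over all tested miRNAs. Over all tested miRNAs, 8.44% rose and 9.7% fell. miR-31, whose hairpin lies at chr4:88556461-88556566 on the minus strand (mm9) outside any annotated host gene, was at 1573, 2063 and 1501 CPM in hyperplasia and at 3437, 3746 and 3728 CPM in late carcinoma. All late carcinoma libraries were above all hyperplasia libraries, and the log2 fold change was 1.09 (SE 0.16, edgeR adjusted p = 0.0111). miR-31 passed the threshold in each of 20 alternative analyses, with a log2 fold change of 1.00 to 1.18 when single libraries were left out.

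miR-9, which is known to target E-cadherin, had the highest fold change of the miRNAs past the threshold. Its hyperplasia libraries were at 20.05, 15.9 and 60.3 CPM and its late carcinoma libraries at 267, 104 and 3267 CPM. The late carcinoma libraries differed from each other by more than the stages did at their nearest values. The log2 fold change was 5.22 (SE 1.31, edgeR adjusted p = 0.0344), and it was 2.48 without late carcinoma library 3 (adjusted p = 0.0388). Without hyperplasia libraries 1, 2 and 3 in turn the adjusted p-value was 0.112, 0.1 and 0.0636, and with the lane as a covariate it was 0.0605. miR-9 passed in 14 of 20 alternative analyses.

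miR-10b lies in introns annotated to Hoxd3 and Hoxd4 at chr2:74564127-74564194 on the plus strand. It was at 59731, 64897 and 76393 CPM in hyperplasia and at 29456, 40667 and 23861 CPM in late carcinoma. The lowest hyperplasia library was above the highest late carcinoma library, and the log2 fold change was -1.10 (SE 0.21, edgeR adjusted p = 0.0168). Its share of all counts was 6.83% ± 1.01 in hyperplasia and 3.08% ± 0.822 in late carcinoma (SD, n = 3 each, exact permutation p = 0.1, the smallest possible). miR-10a, which has the same seed, was at 43785 ± 8566 and 34727 ± 9659 CPM (SD, n = 3) and did not pass the test (log2 fold change -0.33, SE 0.23). Whether the changes of miR-10a and miR-10b differ from each other was not tested.

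miR-138 was at 25.6, 24.3 and 25.03 CPM in hyperplasia, which were close together, and at 15.8, 6.95 and 8.43 CPM in late carcinoma. The libraries of late carcinoma were lower without overlap, with a log2 fold change of -1.22 (SE 0.33, edgeR adjusted p = 0.0386). It passed in 12 of 20 alternative analyses. Of the 6 fits without a single library it passed only in that without late carcinoma library 1, with log2 fold changes of -1.72 to -0.98 over the 6. With the lane as a covariate the adjusted p-value was 0.064. miR-138 has genes on chromosomes 8 and 9, which the counts do not separate. miR-21, an abundant miRNA of many carcinomas, was at 13518 ± 211 and 17662 ± 1062 CPM (SD, n = 3) and just missed the threshold (log2 fold change 0.39, edgeR adjusted p = 0.0519).

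**Figure D2:**
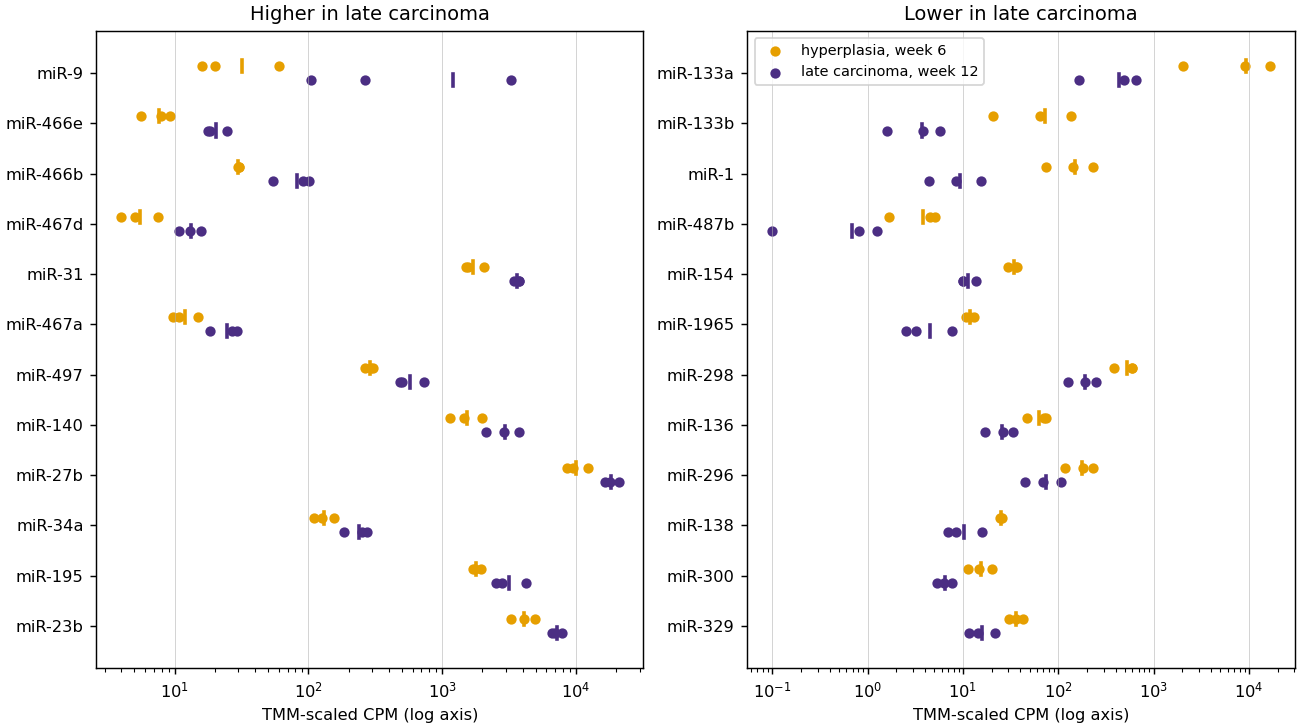
TMM-scaled CPM (log axis) of the called miRNAs at the extremes of the log2 fold change, 12 on the higher and 12 on the lower side. Points are single tumor libraries, vertical bars are group means, and the late carcinoma library of miR-487b with no count is drawn at the left edge. In none of the 24 do the hyperplasia (orange) and late carcinoma (purple) points overlap, and miR-9, miR-133a and miR-133b show a wide spread within a stage.

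Of the 11 epithelial miRNAs, 1 rose and none fell, and 10 had a positive log2 fold change, with a median of 0.32. The share that rose was near the 8.44% of all tested miRNAs, of which 115 of 237 had a positive log2 fold change. The one that rose was miR-200b, at 9923, 11109 and 9861 CPM in hyperplasia and 15524, 14464 and 15107 CPM in late carcinoma (log2 fold change 0.55, SE 0.12, edgeR adjusted p = 0.0231). Its relatives miR-200a, miR-429, miR-200c and miR-141 had log2 fold changes of 0.39, 0.35, 0.44 and 0.32 that did not pass the test. Of the others, miR-182, miR-96 and miR-183 were at 0.43, 0.28 and 0.09. miR-203 and miR-205 were at -0.10 and 0.23, and miR-375 was at 0.22. All of these were short of the threshold.

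Of 79 pairs of tested miRNAs that are neighbours within 10000 bases on the same strand, 68 shared the sign of their change. In 9 pairs both members passed the test, all in the same direction. Many of the pairs lie within the Dlk1-Dio3 domain or the Sfmbt2 intron, and pairs share members, so they are not independent. Over all 237 tested miRNAs 115 had a positive log2 fold change, and the share for pairs that are not neighbours was not computed. The pairs that follow rose. miR-23b and miR-27b lie 131 bases apart on chromosome 13 (chr13:63401780-63401876 and chr13:63402008-63402104, plus strand, intron of 2010111I01Rik), and both rose. miR-27b, which has been studied in lipid metabolism and vessel growth, went from 9472, 12215 and 8508 CPM to 16358, 17938 and 20851 CPM (log2 fold change 0.87, SE 0.17, edgeR adjusted p = 0.0172). miR-23b had a log2 fold change of 0.81 (SE 0.17, edgeR adjusted p = 0.0204). miR-24, whose gene copies accompany both miR-23/27 pairs, rose by 0.68 on the log2 scale and was just inside the threshold (edgeR adjusted p = 0.0493). The other pair, miR-23a and miR-27a, had log2 fold changes of 0.45 and 0.33 and did not pass. miR-24, miR-23a and miR-27a were named after their values were seen.

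miR-497 and miR-195, known to restrain cell cycle genes as members of the miR-15/16 family, lie 241 bases apart at chr11:70048219-70048302 and chr11:70048544-70048637 (plus strand). miR-497 was at 265, 294 and 305 CPM in hyperplasia and 486.3, 732 and 500 CPM in late carcinoma, a log2 fold change of 0.99 (SE 0.20, edgeR adjusted p = 0.0172). miR-195 rose by 0.82 (SE 0.20, adjusted p = 0.0344). The other 3 members tested with the seed AGCAGCA, miR-15a, miR-15b and miR-16, were at 0.22, 0.25 and -0.23 and did not pass.

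Several other families were split in the same way, with 1 member past the threshold, where 18.1% of all tested miRNAs passed. Of the miR-29 family, which targets collagens and other matrix genes, miR-29a rose by 0.59 (edgeR adjusted p = 0.0344), whereas miR-29b and miR-29c were at 0.18 and 0.0025. Of the p53-linked miR-34 family, miR-34a was at 126.8, 156 and 109 CPM and then at 185, 274 and 253 CPM (log2 fold change 0.86, SE 0.22, edgeR adjusted p = 0.0352), and miR-34b and miR-34c were at 0.52 and 0.61 without passing. miR-125a rose by 0.64 (SE 0.11, edgeR adjusted p = 0.0156) and its relative with the same seed, miR-125b, was at -0.17. Of the 8 tested members of the let-7 family, let-7i fell by 0.42 (edgeR adjusted p = 0.0417) and the other 7 ranged from -0.02 to 0.43. Whether members of a family differ from each other was not tested.

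None of the 9 tested members of the growth-promoting miR-17~92 and miR-106b~25 clusters passed the test, and their median log2 fold change was -0.06. Over all 237 tested miRNAs 18.1% passed, and the median was -0.04. The most negative of the 9 was miR-18a at -0.48 (edgeR adjusted p = 0.101). miR-210, the miRNA most closely tied to hypoxia, was at 0.52 and did not pass. The other abundant miRNAs that rose were miR-30d (log2 fold change 0.78), miR-674 (0.76), miR-191 (0.51) and miR-26a (0.43), named after their values were seen. miR-140, known from cartilage and mesenchyme and located in an intron of Wwp2, was at 1460, 1991 and 1135 CPM in hyperplasia and 2133, 2893 and 3762 CPM in late carcinoma (log2 fold change 0.94, SE 0.26, edgeR adjusted p = 0.0396). The gap between its stages was small beside the spread within each.

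Among the 15 tested miRNAs from the Sfmbt2 intron, 4 rose and none fell, and all 15 had a positive log2 fold change, with a median of 0.94. Of all tested miRNAs 8.44% rose, and 115 of 237 had a positive log2 fold change. Those that rose were miR-466e, miR-466b, miR-467d and miR-467a, with log2 fold changes of 1.45, 1.44, 1.24 and 1.07. miR-466b, the most counted of these, was at 30.3, 30.1 and 29.6 CPM in hyperplasia and at 90.5, 54.4 and 100.4 CPM in late carcinoma (SE 0.27, edgeR adjusted p = 0.0165). The group was rare. Its summed level was 114 to 154.7 CPM in hyperplasia and 222 to 339 CPM in late carcinoma, and the counts behind miR-467d were 16, 6 and 7 at the early stage. Of the 4, none passed without hyperplasia library 1, 1 without hyperplasia library 3, and 2 without hyperplasia library 2, late carcinoma library 1 or late carcinoma library 3. These families have many near-identical copies, 8 annotated for miR-466b and 8 for miR-467a, so the counts of single members are uncertain and the members are not independent. miR-466a and miR-466c, at 1.28 and 1.02, had adjusted p-values of 0.0524 and 0.0534 (edgeR).

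**Figure D3:**
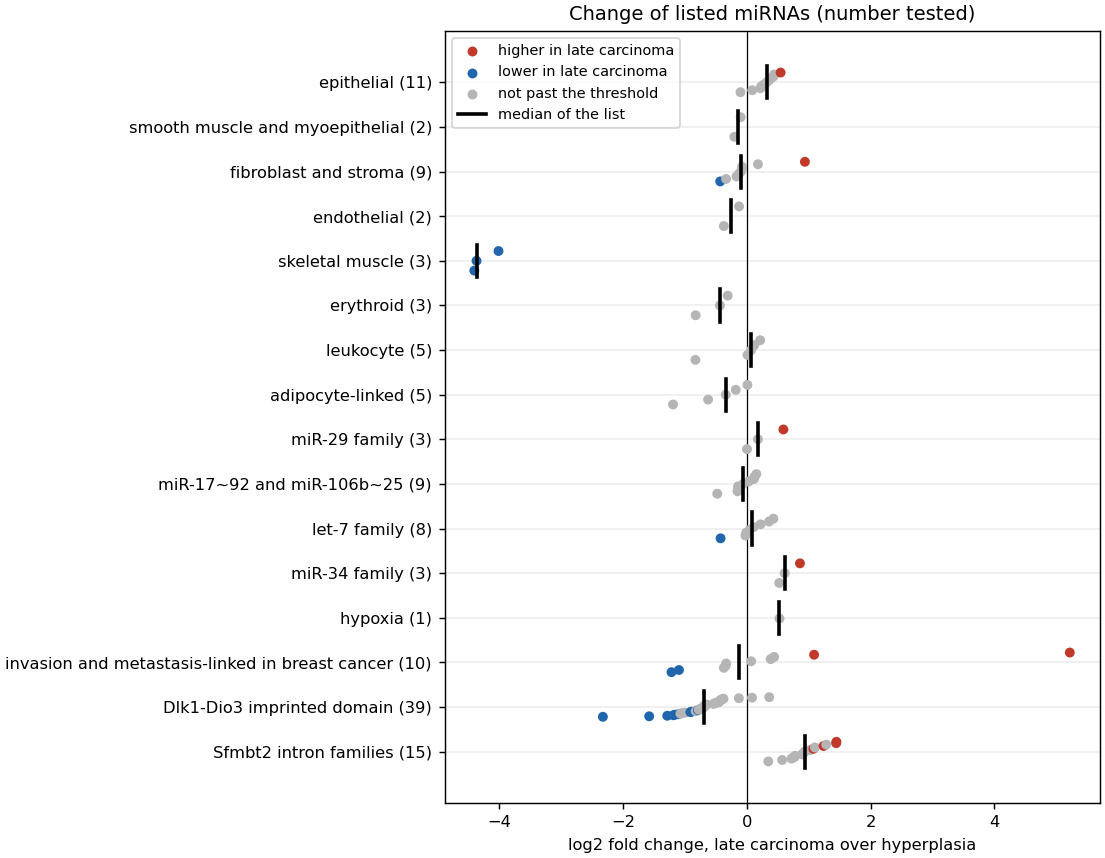
Log2 fold change of late carcinoma over hyperplasia for the tested members of each of 16 lists, with the number tested in brackets, members past the threshold in red (higher) or blue (lower), and the median as a black bar. The medians lie between -0.43 and 0.61 except for skeletal muscle at -4.37, the Dlk1-Dio3 domain at -0.69 and the Sfmbt2 intron at 0.94.

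The largest decreases were those of skeletal muscle miRNAs, and all 3 that could be tested fell, against 9.7% of all tested miRNAs. miR-133a was at 16536, 9112 and 2055 CPM in hyperplasia and at 167, 490 and 656 CPM in late carcinoma (log2 fold change -4.40, SE 0.79, edgeR adjusted p = 0.0156). miR-133b was at 135, 64.4 and 20.5 CPM and then at 1.62, 5.69 and 3.83 CPM, and miR-1 was at 232, 141.3 and 74.0 CPM and then at 8.48, 4.43 and 15.3 CPM. Their log2 fold changes were -4.37 and -4.01. The hyperplasia libraries differed among themselves by far more than for most miRNAs, and library 1 was highest for each of the 3. The muscle miRNAs miR-206, miR-208b and miR-499 were too rare to be tested.

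The muscle miRNAs did not follow the stages in order. On the scale of all 24 libraries, the summed level of the 3 was 42.5 to 67.4 CPM in the tumors of week 8, below late carcinoma, and 117, 39.9 and 17297 CPM in those of week 10. In normal glands it ranged from 93.6 to 87485 CPM at week 6 and from 707 to 89323 CPM at week 12. In a fit of the 12 tumor libraries, where the spread of weeks 8 and 10 counts too, the adjusted p-values of miR-133a, miR-133b and miR-1 were 0.103, 0.0748 and 0.0812 (edgeR), and in a fit of all 24 libraries they were 0.226, 0.226 and 0.26. Without hyperplasia library 1, which held the most of these miRNAs, the log2 fold change of miR-133a was -3.68 (adjusted p = 0.0415). Within lanes the difference of miR-133a was -6.19 on lane 1 and -1.86 on lane 2, on the scale of log2(CPM + 1). With the lane as a covariate the adjusted p-values of miR-133a, miR-133b and miR-1 were 0.0605, 0.0436 and 0.0396 (edgeR). miR-133a passed in 15 of 20 alternative analyses, and miR-133b and miR-1 each in 17 of 19. In bulk tissue, fewer cells of a type and less RNA per cell cannot be told apart.

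Among the lists of other tissues, no erythroid, endothelial, leukocyte, adipocyte-linked or smooth muscle miRNA passed the test. Their median log2 fold changes were -0.43, -0.25, 0.07, -0.34 and -0.15. These lists had 3, 2, 5, 5 and 2 tested members. Over all 237 tested miRNAs 18.1% passed, 8.44% higher and 9.7% lower. The erythroid sum was 7525 to 12793 CPM in hyperplasia and 4666 to 8723 CPM in late carcinoma, and the adipocyte-linked sum was 6049 to 16062 and 3971 to 6167 CPM, with ranges that overlapped in both. Of 9 miRNAs of fibroblasts and stroma, miR-140 rose, miR-22 fell (log2 fold change -0.43, edgeR adjusted p = 0.0443) and 7 did not pass. The part of these cell types in the changes of other miRNAs was not tested.

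Of the 39 tested miRNAs of the Dlk1-Dio3 domain on chromosome 12, 9 fell and none rose, and 37 had a negative log2 fold change, with a median of -0.69. Of all tested miRNAs 9.7% fell, and 122 of 237 had a negative log2 fold change. miR-127, by far the most counted of these, lies opposite the exon of Rtl1 at chr12:110831042-110831138 and was at 19691, 15987 and 16378 CPM in hyperplasia and 10621, 8595 and 8449 CPM in late carcinoma (log2 fold change -0.91, SE 0.15, edgeR adjusted p = 0.0145). All hyperplasia libraries were above all late carcinoma libraries. miR-434 and miR-136, its next neighbours downstream, fell by 0.90 and 1.29.

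miR-154, in an intron of the non-coding gene Mirg at chr12:110976634-110976717, was at 29.8, 36.8 and 36.4 CPM in hyperplasia and at 13.7, 10.1 and 9.96 CPM in late carcinoma (log2 fold change -1.58, SE 0.25, edgeR adjusted p = 0.0145), and it passed the threshold in each of 20 alternative analyses. miR-300, miR-329, miR-410 and miR-411 fell by 1.19, 1.16, 1.11 and 0.79. miR-487b had the lowest fold change of the domain (-2.33, edgeR adjusted p = 0.0493), but it rests on 11, 2 and 8 counts in hyperplasia and 2, 2 and 0 in late carcinoma. The summed level of the 39 was 17244 to 21344 CPM in hyperplasia and 9113 to 11583 CPM in late carcinoma. Of the 9 that fell, 2 passed without hyperplasia library 1, and 3 to 5 passed without any other single library.

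MiRNAs of a second imprinted locus also fell. miR-296 and miR-298 lie next to each other near Gnas on chromosome 2 (chr2:174092548-174092626 and chr2:174093005-174093086, minus strand). miR-298 was at 596, 387 and 597 CPM in hyperplasia and at 192, 125.2 and 251 CPM in late carcinoma (log2 fold change -1.48, SE 0.28, edgeR adjusted p = 0.0168), and miR-296 fell by 1.27 (SE 0.36, adjusted p = 0.0412). In both, library 2 was the lowest of each stage. The remaining miRNAs that fell were miR-1965 (-1.49), miR-708 (-1.13), miR-2133 (-1.11), miR-1983 (-0.95) and miR-689 (-0.93), all of them but miR-1965 named after their values were seen. miR-708, encoded in an intron of Odz4, was at 90.0, 138.8 and 135 CPM and then at 55.3, 63.2 and 47.5 CPM (SE 0.24, edgeR adjusted p = 0.0204).

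A few large fold changes did not pass the test, and that of miR-196a was carried by 1 library. The log2 fold change of miR-196a was 4.36 (edgeR adjusted p = 0.101), and it was at 110 CPM in late carcinoma library 2 and at 0.84 to 3.41 CPM in the other 5. miR-378, a miRNA of the adipocyte-linked list, was at 7715, 14244 and 4747 CPM in hyperplasia and 4859, 2545 and 4275 CPM in late carcinoma, and its stages overlapped (log2 fold change -1.19, edgeR adjusted p = 0.0725).

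The tumors of weeks 8 and 10 were examined for the path between the endpoints. They entered the filter on low counts but not the test that called the 43. Of the 20 miRNAs that rose, 18 had a higher mean log2 CPM at week 10 than at week 8, against 56.5% of all tested miRNAs. Of the 23 that fell, 15 were lower at week 10 than at week 8, against 43.5% of all tested. Means moved in 1 direction over all 4 weeks in 16 of the 20 and 13 of the 23, against 73 of all 237 tested. Since the end weeks chose these miRNAs, these last counts are a description. miR-31 had means of 1725, 2768, 2947 and 3596 CPM at weeks 6, 8, 10 and 12 in the scaling of the 12 tumors. miR-10b had 67599, 35766, 36115 and 30978 CPM, so that most of its decrease lay between weeks 6 and 8. miR-9 was at 1776 CPM in 1 tumor of week 8 and at 26.7 and 9.88 CPM in the others on the scale of all 24 libraries.

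**Figure D4:**
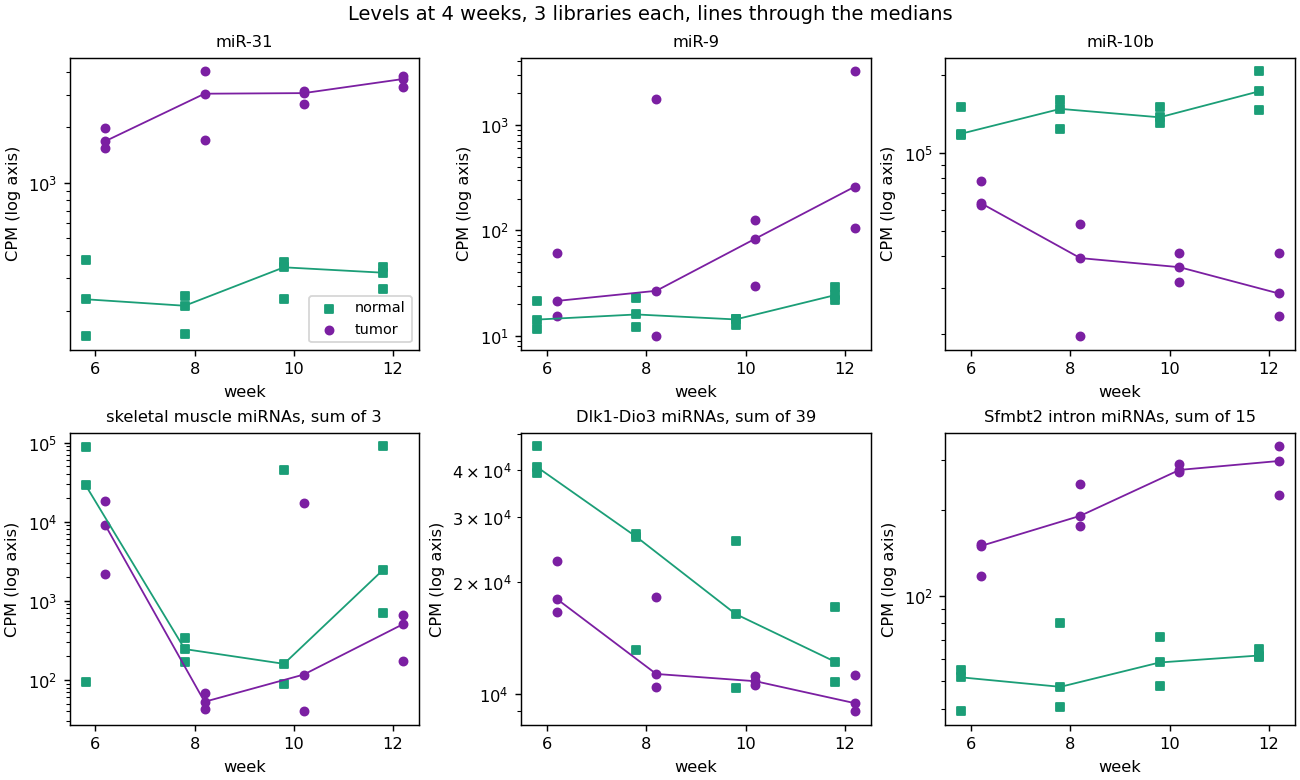
CPM on a log axis, scaled over all 24 libraries, against the week in tumors (purple circles) and normal glands (green squares), with 3 libraries per week and tissue and lines through the medians. miR-31 and the Sfmbt2 intron miRNAs are higher in tumors and rise with the weeks, the Dlk1-Dio3 sum falls in both tissues, and the muscle sum is scattered over orders of magnitude in both.

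Normal glands of weeks 6 and 12 show what changed over the same ages without the transgene. There, 25 of the 237 miRNAs (10.5%) passed the threshold, all of them lower at week 12 and all of the Dlk1-Dio3 list, whose median log2 fold change was -1.64. The summed level of the 39 went from 40758, 39239 and 46352 CPM in the normal glands of week 6 to 12221, 17173 and 10793 CPM at week 12, on the scale of all 24 libraries. On that scale the tumors were lower than normal glands at week 6, at 22822, 16643 and 18001 CPM, and overlapped with them at week 12, at 11247, 9449 and 8974 CPM. The 25 normal calls were 0 without any 1 of the 3 glands of week 6 or without gland 1 of week 12, and 9 without gland 3 of week 12. An unadjusted p-value under 0.05 was still reached by 41 to 62 miRNAs where no call was left.

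miRNAs that fell in both tissues numbered 8, which is 34.8% of the 23 that fell in tumors and 32% of the 25 that fell in normal glands. All 8 belong to the Dlk1-Dio3 list, and the ninth that fell in tumors, miR-487b, was at -1.40 in normal glands without passing. miR-298 and miR-296 were at -1.68 and -1.35 in normal glands, also without passing. The Sfmbt2 intron miRNAs had a median of 0.17 in normal glands, and their summed level there was 39.2 to 54.7 CPM at week 6 and 60.7 to 64.8 CPM at week 12 against 117 to 151.5 and 225 to 334 CPM in tumors. Of the 20 miRNAs that rose in tumors, 18 had a positive log2 fold change in normal glands, against 123 of all 237 tested, and none passed there.

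**Figure D5:**
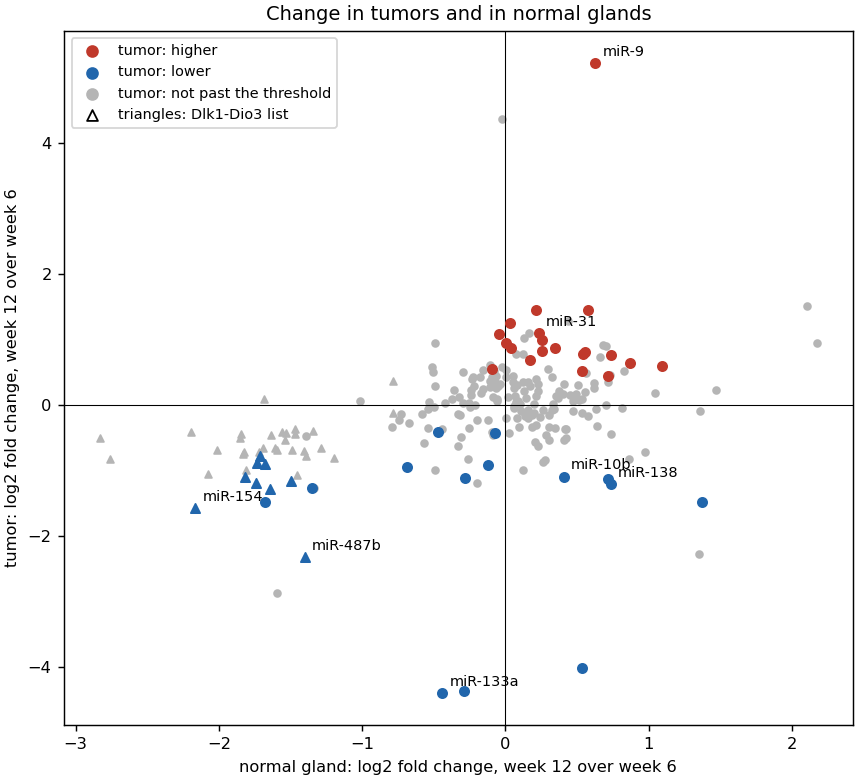
Log2 fold change of week 12 over week 6 in normal glands (x axis) and in tumors (y axis) for the 237 tested miRNAs, with triangles for the Dlk1-Dio3 list and colours for the result in tumors. The triangles lie below 0 in normal glands throughout and, apart from 2, in tumors, while miR-10b, miR-138 and miR-708 lie below 0 in tumors and above 0 in normal glands.

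The difference of the changes was tested as an interaction in a fit of all 24 libraries. miR-138 was the only 1 of the 237 past the threshold (0.422%), with a change in tumors that was lower than that in normal glands by 2.08 log2 units (SE 0.43, edgeR adjusted p = 0.0239). An unadjusted p-value under 0.05 was reached by 31. For miR-10b the difference was -1.58 (edgeR adjusted p = 0.0589). For miR-31, miR-9 and miR-154 it was 0.75, 4.50 and 0.54 with adjusted p-values of 0.426, 0.321 and 0.613, and for the 3 muscle miRNAs it was -4.08 to -4.67 with adjusted p-values of 0.432 to 0.461. The miR-138 call was lost in the fit of weeks 6 and 12 alone, without any 1 of the 3 hyperplasia libraries and without late carcinoma library 3, so a change particular to the tumors was not firmly shown for any miRNA.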

How the data were processed

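Small RNA libraries (Illumina TruSeq small RNA kit) of mammary tumors and normal glands were used. According to the study's methods, the authors removed barcode and adaptor, aligned reads of mature miRNA length with Bowtie and counted the reads overlapping each miRBase miRNA. The deposited values are counts. The paper gives the assembly as mm10, whereas the column names end in mm9. Groups, weeks, replicate numbers and lanes came from the labels. All 24 columns matched a sample.

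From these deposited counts, miRNAs kept by filterByExpr over the 8 groups were tested with edgeR 4.0.16 in R 4.3.3 (TMM normalization, quasi-likelihood test, Benjamini-Hochberg adjustment over all tested miRNAs, threshold 0.05). A log2 fold change is that of week 12 over week 6, and its standard error (SE) is the absolute value over the square root of F. The filter used all groups, so a miRNA may pass through the group in which it is high. Libraries of a stage correlated at 0.979 to 0.992 (Pearson, log2 CPM across miRNAs) and none was a duplicate. DESeq2 1.42.0 was an alternative. The procedure was tested on simulated counts. Floors of 3 counts cover counting error only, since amplified reads are not independent molecules.

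Named were the 12 highest and 12 lowest log2 fold changes among non-overlapping calls, the 5 most counted miRNAs and members of 16 lists (for the 2 large clusters, members past the threshold). The comparison and the lists were chosen with earlier results of these data known. Positions are those of GENCODE vM1 (mm9) and sequences those of RefSeq. Sequences of some miRNAs are not reported here.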

Additional observations from a re-analysis of the deposited data

Results flagged for a closer look

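1 result stood out because the same contrast differed between the tissues. From week 6 to week 12 the change of miR-138 in tumors minus that in normal glands was -2.08 log2 units (SE 0.43, edgeR adjusted p = 0.0239 over 237 miRNAs). Its tumor libraries were at 27.4, 23.4 and 25.6 CPM at week 6 and at 15.3, 7.04 and 8.30 CPM at week 12, scaled over all 24 libraries. Its normal libraries were at 37.8, 18.8 and 19.2 CPM and at 52.8, 30.7 and 47.2 CPM. All 3 tumors of week 12 were below the tumors of week 6, and the normal glands of the 2 weeks overlapped. The call was lost without any 1 of the 3 hyperplasia libraries, without late carcinoma library 3 and in a fit of weeks 6 and 12 alone. No group of these comparisons had the 4 libraries needed to test for outlying samples.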

How the results depend on the processing

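The 43 miRNAs past the threshold in tumors were 27 with library sizes only, 18 in the fit of all 24 libraries, 20 with the lane as a covariate and 22 when a change of 1 log2 unit was also required, and between 8 and 32 when single libraries were left out. 8 remained without hyperplasia library 1, and 24, 15 and 24 were called without hyperplasia libraries 2 and 3 and late carcinoma library 3. None of the 43 had the opposite direction in any alternative that tested it, and calls made only by an alternative were not compared. The share of higher among changed miRNAs was 58.2% without the 5 most counted miRNAs against 46.5%, since 55 were called, 32 of them higher. DESeq2 called 56.

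Same-numbered libraries of the stages deviated together little (correlations 0.0659, 0.0837 and -0.121), so the replicate numbers do not pair the tumors. With the replicate block 29 miRNAs were called, 13 higher and 16 lower.

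In normal glands the 25 calls became 50 in the fit of all 24 libraries, 0 with the replicate block and between 0 and 33 with single libraries left out. The 1 interaction call became 0 in the fit of weeks 6 and 12 alone, 2 with the replicate block and 0 to 1 with single tumor libraries left out. The cause of these shifts was not tested. List medians kept their sign under both other scalings. The precision is limited by 3 libraries a group and, for miRNAs near 1.36 to 2.48 CPM, by depth.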
